A study of Drosophila melanogaster with 20 samples.

Results

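Female and male heads were compared in red-eyed fruit flies (Drosophila melanogaster). The comparison took 10 of the 20 RNA-seq samples of the series, 5 of w+ females and 5 of w+ males, chosen by the sex and eye color on their labels. Each sample was a pool of 10 heads from 1-week-old unmated flies. The w+ flies carried a functional copy of the eye color gene white (w) from the Harwich stock, moved into the w1118 background by 10 generations of backcrossing. The w+ females were heterozygous for this copy and the w+ males hemizygous, so both sexes had 1 functional copy of w. The remaining 10 samples, from white-eyed (w-) siblings of both sexes, were used for comparison only. Reads were counted per gene, and edgeR's quasi-likelihood test was run on the 10937 genes that reached 10 counts in 3 or more of these samples. Adjusted p is its p-value after the Benjamini-Hochberg adjustment, a gene was called when it was under 0.05, and log2 fold changes are females against males. Levels are given as CPM, a gene's counts relative to the total of its library, scaled by the trimmed mean of M-values (TMM).

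In flies, sex is set by the number of X chromosomes through the RNA-binding protein Sxl. In females Sxl blocks translation of msl-2 and directs female splicing of tra, which in turn sets the female forms of dsx and fru. In males msl-2 is translated and assembles with other MSL proteins and the noncoding RNAs roX1 and roX2 into a complex that raises transcription of the single X chromosome. The fat body, which in the head lies around the brain and under the cuticle, is the best known source of sex-biased RNA in heads, including the yolk proteins that females send to the ovary. In a bulk sample a change in the number of cells of a type and a change in their RNA cannot be told apart.

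Total counts per pool went from 38682733 to 47133676 in females and from 39274716 to 48866963 in males (5 pools each, exact two-sided permutation p = 0.79, adjusted p over 4 quantities = 0.79). At this depth 3 counts corresponded to between 0.0614 and 0.0776 CPM before TMM scaling. Some pools stood apart in single groups of genes. In w+ females replicate 4 the 17 tested antimicrobial peptide genes summed to 5380 CPM, against 547 to 824 CPM in the other 4 female pools and 567 to 787 CPM in males. In w+ males replicate 4 the 24 testis genes that were too rare to be tested summed to 104 CPM without TMM scaling, against 0.184 to 0.471 in the other 9 pools. Counts of loopin-1, a testis protein gene, were 775 in this pool and at most 4 in any other of the 10. Of 33 listed testis genes 28 had at least 10 counts in w+ males replicate 4, against 8 to 10 in the other 9 pools. Without both pools numbered 4, 2198 genes were called, of which 1295 were higher in females and 903 higher in males. A single gene also varied between pools. Cyp4g1, the P450 enzyme of hydrocarbon synthesis in oenocytes, ranged from 0.132 to 24.7 CPM in females and from 0.192 to 39.8 CPM in males, and was above 5 CPM in 3 female and 2 male pools.

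**Figure D1:**
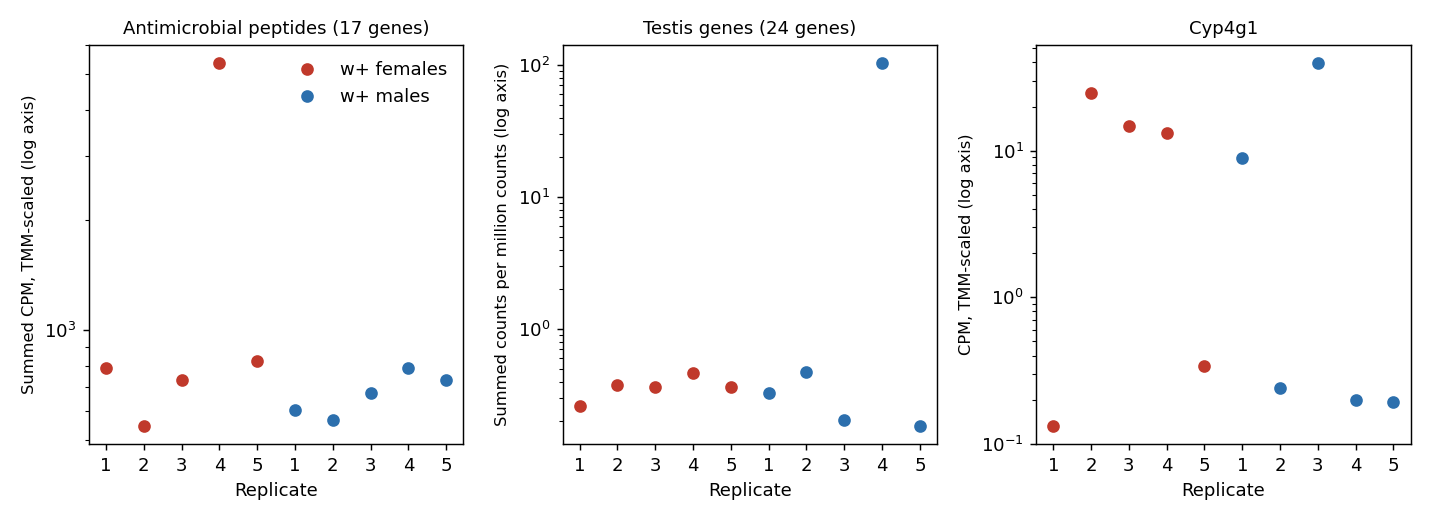
Each point is a pool of 10 heads (red, w+ females; blue, w+ males; replicate number on the x axis), with log y axes: the summed TMM-scaled CPM of 17 antimicrobial peptide genes, the summed unscaled CPM of 24 testis genes outside the test, and the CPM of Cyp4g1. Antimicrobial peptides are high in w+ females replicate 4 (5380 CPM), testis genes in w+ males replicate 4 (104 CPM), and Cyp4g1 varies within both sexes.

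Levels differed between the sexes for 3150 of the 10937 tested genes (28.8%). In females 1845 genes were higher (16.9%) and in males 1305 were higher (11.9%). Most differences were small. The median log2 fold change was 0.41 among the genes higher in females and -0.27 among those higher in males, and 2102 of the 3150 calls were under 0.5 in size. At least 1 on the log2 scale was reached by 217 genes higher in females and 137 higher in males, and at least 3 by 28 and 14. The 5 female values and the 5 male values did not overlap for 2101 genes (19.2%), of which 1139 were higher in females (10.4%) and 962 higher in males (8.80%). The direction of the calls depended on the scaling. When library size alone was used for scaling, the median of all genes moved by -0.27 on the log2 scale, and only 9.62% of the calls were higher in females, against 58.6% with TMM. Milder alternatives narrowed the female majority. With TMM set without the yolk protein genes, 1656 genes were higher in females and 1516 in males. With at least 10 counts required in every sample, these counts were 1569 and 1485. Among autosomal genes alone the male side was then the larger, with 1229 and 1240 in the first case and 1167 and 1234 in the second. Directions below are relative to the bulk of genes, as TMM sets it. Counts of list members below are to be read beside the shares over all tested genes, 16.9% higher in females and 11.9% higher in males.

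**Figure D2:**
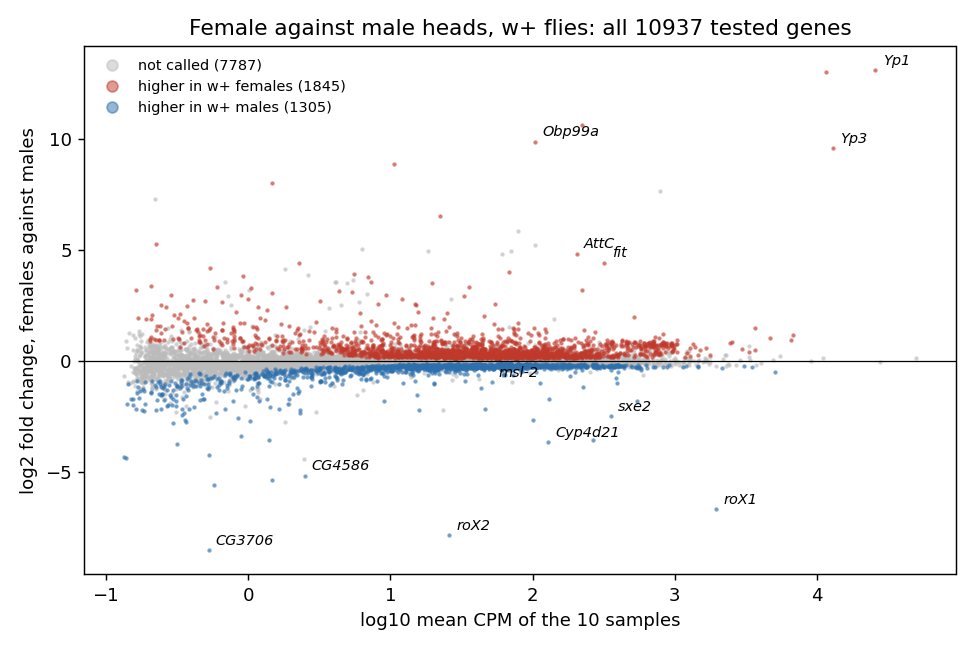
Each point is 1 of 10937 tested genes, with the log10 of its mean CPM over the 10 samples on the x axis and the log2 fold change of females against males on the y axis (red, 1845 called higher in females; blue, 1305 called higher in males; grey, not called). The yolk protein genes and Obp99a lie at the top and roX1, roX2 and CG3706 at the bottom, while most called genes lie near 0.

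The RNAs of the dosage compensation complex marked male heads. The noncoding RNA roX1 (X, 3857230 to 3862697 in the release 6 assembly) was at 40.9, 35.6, 36.0, 34.3 and 41.7 CPM in the female pools and at 3810, 4320, 3740, 3610 and 3780 CPM in the male pools. The groups were far apart, with lncRNA:roX1 102-fold higher in males (log2 fold change -6.68, SE 0.10, adjusted p = 1.3e-12). The roX2 RNA (X, 11579065 to 11580432) was at 0.153 to 0.318 CPM in females and at 48.0 to 56.1 CPM in males. It was 228-fold higher in males (lncRNA:roX2, log2 fold change -7.83, SE 0.11, adjusted p = 9e-13). Per kb of exon, the male level of roX1 was 705 CPM and that of roX2 37.6 CPM, so roX1 was the more abundant of the pair. For the protein that limits the complex, msl-2, the female values were 34.6 to 35.4 CPM and the male values 71.9, 72.8, 63.2, 66.0 and 65.7 CPM. The male mean of msl-2 was 1.94-fold the female mean (log2 fold change -0.96, SE 0.05, adjusted p = 1.9e-07). The acetyltransferase gene of the complex, mof, was at 7.14 to 9.75 CPM in females and 9.26 to 11.7 CPM in males and was not called (adjusted p = 0.076), nor were the scaffold gene msl-1 (log2 fold change 0.00, adjusted p = 0.97) and the helicase gene mle (-0.06, adjusted p = 0.44). Of the 13 dosage compensation genes tested, 3 were higher in males (23.1%) and 1, Sxl, higher in females (7.69%). Over all tested genes these shares were 11.9% and 16.9%. Under 5 of 20 alternative settings mof was called higher in males, and mle under 1. In w- flies both were called higher in males, mof at -0.35 (edgeR adjusted p = 0.0035) and mle at -0.14 (adjusted p = 0.0017). In all, 6 listed members were called higher in w- males, and edgeR called 0 for a difference between the genotypes.

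Sxl (X, 7074550 to 7098053) was at 367 to 429 CPM in females and 261 to 311 CPM in males. The groups did not overlap, with a log2 fold change of 0.52 (SE 0.06, adjusted p = 0.00016). Its splicing cofactor snf was higher in females by 0.30 (SE 0.05, adjusted p = 0.0018), and so was the courtship regulator fru by 0.20 (SE 0.05, adjusted p = 0.0099), although with library size alone fru was at -0.07. The other 17 of 20 tested sex determination genes were not called, and their list had a median log2 fold change of 0.02 beside 0.02 over all genes. Among them, dsx was at 38.7 to 56.9 CPM in females and 36.8 to 56.7 CPM in males (adjusted p = 0.72), and tra at 11.5 to 14.0 CPM and 10.1 to 13.5 CPM (adjusted p = 0.25). Counts per gene do not separate the sex-specific exons of Sxl, tra, dsx, fru and msl-2.

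The largest differences on the female side were in the yolk protein genes, whose proteins are taken up by oocytes. Yp1 (X, 10053811 to 10055498) was at 56600, 64500, 34300, 75700 and 25700 CPM in females. In males Yp1 was at 0.292, 16.7, 5.97, 0.528 and 5.64 CPM. Every female pool was far above every male pool, and the log2 fold change of Yp1 was 13.11 (SE 1.35, adjusted p = 0.00023). Yp2 (X, 10050951 to 10052636) lies beside Yp1 and went from 10200 to 35200 CPM in females and from 0.731 to 7.42 CPM in males (log2 fold change 13.03, SE 0.95, adjusted p = 2.7e-05). Yp3 (X, 13759546 to 13761547) was at 10600 to 39600 CPM in females and had a higher male level than Yp1 and Yp2, 28.0 to 37.0 CPM (log2 fold change 9.58, SE 0.44, adjusted p = 5.1e-07). Among males, replicate 2 had the highest Yp1 and Yp2 and replicate 1 the lowest, while male Yp3 varied little. Per kb of exon, the female level of Yp1 was 31900 CPM, that of Yp2 14300 CPM and that of Yp3 13900 CPM.

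Together the yolk protein genes took 10.4%, 10.9%, 6.31%, 12.2% and 4.63% of the counts of the female pools and 0.00324% to 0.00657% of those of the male pools (exact two-sided permutation p = 0.0079, the smallest that 5 against 5 samples allow, adjusted p over 4 quantities = 0.016). Because all 3 genes are X-linked, the share of counts on the X was 22.7% ± 2.65 (SD, n = 5) in females and between 14.9% and 15.2% in males (exact permutation p = 0.0079, adjusted p = 0.016). Outside the yolk protein genes the X shares were 14.8% to 15.4% in females and 14.9% to 15.2% in males (exact permutation p = 0.62, adjusted p = 0.79). An annotated antisense RNA inside Yp1, asRNA:CR45601, was at 201 to 597 CPM in females and 0.0914 to 0.412 CPM in males (log2 fold change 10.62, SE 0.50, adjusted p = 1.6e-06). Its counts were 0.768% to 0.955% of those of Yp1 in the female pools. In the male pools, with only 5 to 19 counts of the antisense RNA, they were 2.47% to 54.2% of those of Yp1. The counting used strand, and how many of these reads came from the Yp1 strand was not tested.

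Other genes known from the head fat body were sexually dimorphic in both directions. Of 11 tested genes of a list of sex-biased head fat body genes, 7 were higher in females and 3 higher in males. This list holds genes known for a sex difference, so the direction of its members is no independent result. The fit gene (female-specific independent of transformer), which encodes a satiety signal, was at 965, 716, 353, 760 and 261 CPM in females and 19.6, 30.1, 37.6, 25.6 and 29.1 CPM in males. Every female value exceeded every male value, with a log2 fold change of 4.43 (SE 0.40, adjusted p = 1e-04). Obp99a, of the odorant-binding protein family, was at 182, 237, 134, 347 and 138 CPM in females and at 0.128, 0.108, 0.185, 0.528 and 0.149 CPM in males. Its log2 fold change was 9.89 (SE 0.49, adjusted p = 2.1e-06). Male Obp99a was close to the 3-count limit of these pools. The neighboring family member Obp99b went the other way. It was at 112, 9.12, 14.7, 4.99 and 69.9 CPM in females and 483, 298, 484, 602 and 601 CPM in males. Its log2 fold change was -3.55 (SE 0.88, adjusted p = 0.018), and the female pools differed widely among themselves.

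Cyp4d21 (sxe1), a P450 gene of the sex circuit linked to courtship, was at 15.1 to 22.8 CPM in females and 184 to 270 CPM in males, 12.5-fold higher (log2 fold change -3.65, SE 0.13, adjusted p = 3.5e-08). The lipase family gene sxe2 was at 85.2 to 120 CPM in females and 542 to 689 CPM in males, 5.54-fold higher (log2 fold change -2.47, SE 0.10, adjusted p = 3.5e-08). In contrast, takeout (to), known as a male-biased gene of the head fat body, was at 82.0 to 103 CPM in females and 85.8 to 98.9 CPM in males and was not called (adjusted p = 0.80). The storage protein gene Lsp2 was at 7000, 6060, 2990, 7060 and 4090 CPM in females and 844, 1230, 3280, 1100 and 3110 CPM in males. These ranges overlapped, and the call of Lsp2 (log2 fold change 1.51, SE 0.44, adjusted p = 0.029) was lost without any of females 1, 2 or 4 or males 1, 2 or 4. The lipoprotein gene apolpp was higher in females by 1.17 (SE 0.23, adjusted p = 0.0039), at 4700 to 11900 CPM against 3640 to 4870 CPM. The glucosidase gene tobi, a target of insulin-producing cells, was at 616 to 1040 CPM in females and 106 to 405 CPM in males (log2 fold change 1.98, SE 0.36, adjusted p = 0.0035). The membrane protein gene rost, known from myoblast fusion, was 15.9-fold higher in females (62.6 to 169 CPM against 6.23 to 9.09 CPM, adjusted p = 1.8e-05).

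**Figure D3:**
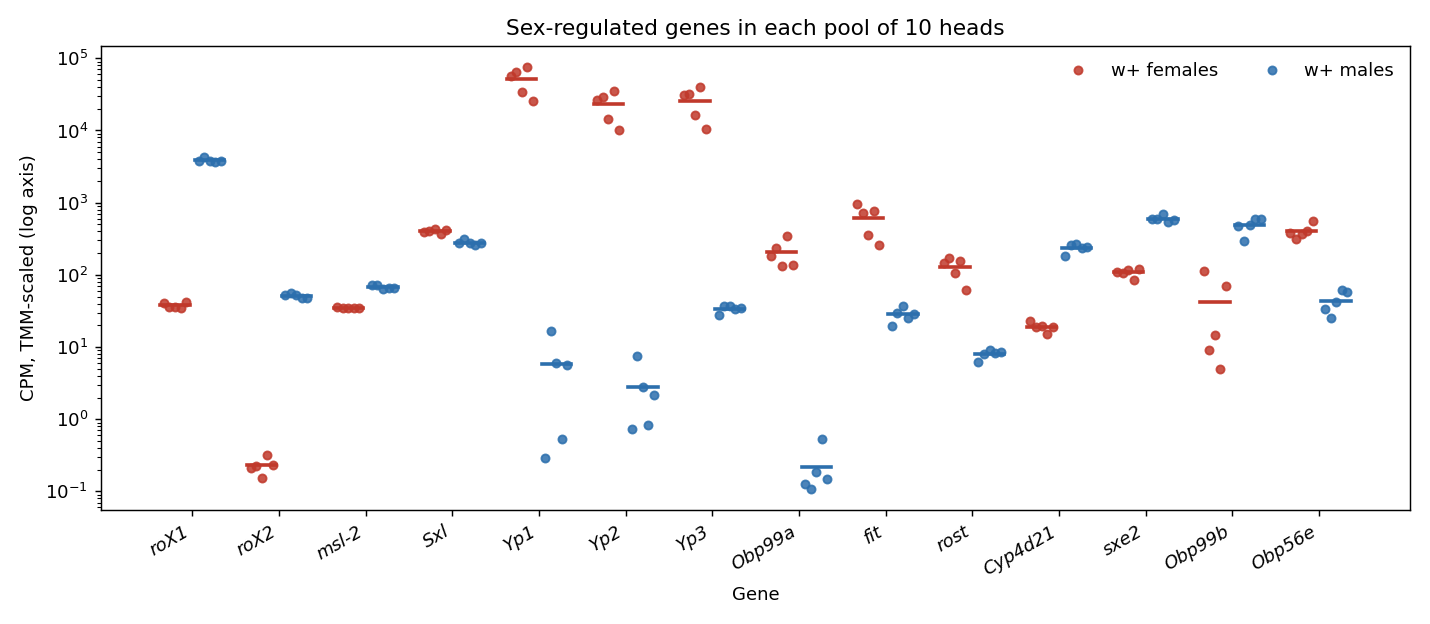
CPM (log y axis, TMM-scaled) of 14 genes in each of the 5 w+ female (red) and 5 w+ male (blue) pools, with bars at the group means. The groups do not overlap for any of these genes; roX1 is at 34.3 to 41.7 CPM in females and 3610 to 4320 CPM in males, and Yp1 at 25700 to 75700 and 0.292 to 16.7 CPM.

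Odorant-binding proteins are small secreted carriers, several of which are made outside the sense organs. Of the 33 tested, 11 were higher in females (33.3%) and 7 higher in males (21.2%), beside 16.9% and 11.9% of all tested genes. Obp56e was at 378, 318, 367, 406 and 550 CPM in females and 33.3, 25.3, 42.5, 61.5 and 57.2 CPM in males, a log2 fold change of 3.20 (SE 0.27, adjusted p = 6.1e-05). Its cluster neighbors moved the same way, Obp56d by 0.90 (adjusted p = 0.00013), Obp56f by 2.43 (adjusted p = 0.00014) and Obp56a by 1.63 (adjusted p = 0.034). Female replicate 5 had 45.3 CPM of Obp56a and the other females 12.5 to 17.5 CPM, and the call was lost without any 1 of females 1 and 5 and males 1, 2 and 3. The pair Obp83cd and Obp83ef was higher in females by 2.58 (adjusted p = 4.3e-05) and 1.80 (adjusted p = 3.3e-05), whereas Obp19b was higher in males, at 8.89 to 12.7 CPM in females against 16.6 to 21.7 CPM (log2 fold change -0.87, SE 0.11, adjusted p = 0.00023). Among receptors, 3 of 42 tested odorant receptors were higher in females (7.14%) and 6 in males (14.3%, near the 11.9% of all tested genes). Of 25 ionotropic receptors 0 were higher in females and 7 in males (28.0%). The count of 7 was 3 without any 1 of females 2, 3 and 4, 4 without male replicate 4 or 5, and 12 with library size alone. The receptor Or47b, which detects a fly odor that promotes male courtship, was at 2.29, 2.20, 2.34, 1.91 and 2.47 CPM in females and 4.88, 3.80, 3.91, 4.01 and 4.54 CPM in males (log2 fold change -0.91, SE 0.10, adjusted p = 0.00013). Or67d, the receptor for the male pheromone cVA, was higher in females, at 4.54 to 4.99 CPM against 2.91 to 3.98 CPM (log2 fold change 0.45, SE 0.10, adjusted p = 0.0051). Its coreceptor gene Snmp1 and the cVA-binding protein gene lush went the other way, by -0.40 (adjusted p = 0.00037) and -0.20 (adjusted p = 0.033). The lush call was lost without any of 6 single pools.

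Enzymes that make cuticular hydrocarbons and pheromones were tested as 18 genes, of which 9 were higher in females and 0 higher in males, with a median log2 fold change of 0.48. The elongase gene bond was at 55.9 to 86.0 CPM in females and 36.2 to 47.1 CPM in males (0.77, SE 0.12, adjusted p = 0.0014). The reductase gene spidey was higher in females by 0.35 (SE 0.05, adjusted p = 0.00092). Desat1, the desaturase of the main pathway, was at 2740, 3450, 2360, 4890 and 2130 CPM in females and 1430, 1890, 1550, 1700 and 2320 CPM in males (0.81, SE 0.23, adjusted p = 0.022), and its call was lost without female replicate 2 or male replicate 1 and without both pools numbered 4. The fatty acid synthase FASN1 was higher by 0.88 (SE 0.20, adjusted p = 0.0073), although female replicate 5 at 1930 CPM lay below male replicate 2 at 2260 CPM. Of 25 tested genes of fatty acid synthesis and fat storage, 12 were higher in females and 0 in males, with a median of 0.33. These lists share ACC, Desat1 and FASN1. Single pools moved these counts. The pheromone list had 5 genes higher in females without female replicate 2 or male replicate 1, and the fat list had 7 without male replicate 1, 8 without female replicate 2 or male replicate 2, and 17 without female replicate 5. The fat list had 2 higher and 3 lower with library size alone.

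The female-specific desaturase gene Fad2 (desatF) had 0, 41, 33, 14 and 1 counts in the 5 female pools and 0 counts in each male pool. The lower bound of the difference, against 3 counts over the male group, was at least 30.1-fold, and Fad2 was not called (adjusted p = 0.056). DESeq2 called it (adjusted p = 0.005). So did edgeR with the replicate number as a block (0.01), with library size alone (0.038) and without female replicate 1 (0.031) or 5 (0.033). The 3 female pools with 14 or more Fad2 counts were those with 415 to 976 Cyp4g1 counts, and the other 2 had 5 and 13. Male replicates 1 and 3 had 490 and 1720 Cyp4g1 counts and 0 Fad2 counts. Cyp4g1 itself did not pass the test between the sexes (log2 fold change 0.11, SE 1.54, adjusted p = 0.97).

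Cytosolic ribosomal protein genes were higher in females. Of 85 tested cytosolic ribosomal protein genes, 81 were higher in females and 0 in males, with a median log2 fold change of 0.75 beside 0.02 over all genes, and 0.47 with library size alone. RpL41 was at 983, 1250, 963, 1300 and 736 CPM in females and 485, 470, 553, 503 and 544 CPM in males (1.03, SE 0.14, adjusted p = 0.00035). RpL3 was at 1180 to 2120 CPM in females and 952 to 1030 CPM in males (0.75, SE 0.13, adjusted p = 0.0017). The 4 members not called, chosen for naming by that outcome, were RpL24-like (-0.02), RpL37-2 (-0.58), RpLP0-like (0.39) and RpS5b (-0.05). The elongation factor genes eEF1alpha1 and eEF2 were higher in females by 0.96 (SE 0.15, adjusted p = 0.0011) and 0.51 (SE 0.11, adjusted p = 0.0066). Both were named for being among the 10 largest CPM differences on the female side, so their direction is no independent result. No list of translation factors was examined. Summed over the list, ribosomal proteins were at 69000, 76000, 60500, 82300 and 48000 CPM in females and 37800 to 41300 CPM in males. The female pools had the same order in this sum as in yolk protein RNA, with replicate 4 highest and replicate 5 lowest, an order over 5 pools given as a description. Of the 15 mitochondrially encoded genes 4 were higher in females and 0 in males, with a median of 0.22 that was -0.06 with library size alone.

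Blood cell genes were higher in females. Of 12 hemocyte markers 11 were higher in females and 0 in males, with a median log2 fold change of 0.93 and 0.66 with library size alone. Hml (hemolectin), the usual marker of plasmatocytes, was at 168, 148, 188, 158 and 161 CPM in females and 74.0, 67.1, 85.5, 69.4 and 102 CPM in males (1.05, SE 0.11, adjusted p = 0.00012). The phagocytosis receptors NimC1 and eater were higher by 1.28 (SE 0.11, adjusted p = 2.9e-05) and 1.33 (SE 0.14, adjusted p = 8e-05). The crystal cell enzymes PPO1 and PPO2 were higher by 1.36 (SE 0.20, adjusted p = 0.0011) and 1.23 (SE 0.19, adjusted p = 0.0012). Col4a1, a collagen made by hemocytes and fat body, was higher by 0.82 (SE 0.07, adjusted p = 1.5e-05). Pxn (peroxidasin) was the exception, at 94.5 to 106 CPM in females and 93.1 to 102 CPM in males (0.05, adjusted p = 0.39), and at -0.22 with library size alone.

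Antimicrobial peptides are made by the fat body and blood cells upon immune activation. Of 17 tested, 2 were called higher in females and 2 higher in males, and the median log2 fold change was 3.54 with all pools and 0.50 without female replicate 4. Without that pool 2 of 16 were called higher in females and 0 in males. DESeq2 called 5 higher in females, and a fit on all 20 samples called 11. The attacin gene AttC was at 164, 67.3, 89.8, 1620 and 31.3 CPM in females and 8.06, 3.47, 12.3, 16.3 and 28.9 CPM in males (4.83, SE 1.32, adjusted p = 0.027). The groups did not overlap, AttC was at 2.67 without female replicate 4, and its call was lost without any 1 of males 1 to 4 and with DESeq2. The antifungal peptide gene Drs was at 47.5, 18.0, 101, 20.6 and 137 CPM in females and 3.77, 5.97, 7.29, 4.25 and 11.2 CPM in males (3.32, SE 0.67, adjusted p = 0.0075), and here female replicate 4 was among the lower values. DptA was at 774 CPM in female replicate 4 and at 0.437 to 3.72 CPM in the other females, beside 0.325 to 7.09 CPM in males, and was not called (adjusted p = 0.10). Def (defensin) went the other way, at 3.72, 5.34, 5.02, 2.41 and 11.7 CPM in females and 5.39, 7.35, 37.6, 36.7 and 42.8 CPM in males (-2.19, SE 0.70, adjusted p = 0.045), a call that was lost without any of 7 single pools. A gene of no stated role, CG34220, chosen after its values were seen, had 7790 CPM in female replicate 4, 1.65 to 2.39 CPM in the other females and 1.22 to 32.1 CPM in males. Of the Turandot genes, which encode humoral stress proteins, TotM was higher in females (3.14, SE 0.36, adjusted p = 0.00027), while TotX was higher in males, at 11.3 to 22.9 CPM in females against 61.2 to 129 CPM (-2.16, SE 0.27, adjusted p = 0.00053).

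Of 14 muscle markers 10 were higher in females and 1 in males, with a median log2 fold change of 0.34, and with library size alone 1 was higher and 2 lower. Myosin heavy chain, Mhc, was at 1610, 1660, 2080, 1520 and 2030 CPM in females and 1180, 1430, 1250, 1120 and 1210 CPM in males (0.52, SE 0.10, adjusted p = 0.0036). The muscle LIM protein gene Mlp60A was higher by 0.74 (SE 0.07, adjusted p = 2.7e-05) and paramyosin, Prm, by 0.46 (SE 0.07, adjusted p = 0.00065). Act88F, the actin of the indirect flight muscle of the thorax, was lower in females (-0.60, SE 0.15, adjusted p = 0.012). Of 12 neuron markers 0 were higher in females and 5 higher in males, with a median of -0.19. The count of 5 was 2 without any 1 of females 1 and 2 and males 2 and 5, 3 without female replicate 3, and 11 without female replicate 5 or with library size alone. The enzyme gene of GABA synthesis, Gad1, was at 476 to 554 CPM in females and 596 to 645 CPM in males (-0.31, SE 0.06, adjusted p = 0.0024). ChAT, of acetylcholine synthesis, was at -0.27 (SE 0.05, adjusted p = 0.0031), and the pan-neuronal gene elav did not pass the test (0.01, adjusted p = 0.95). Of 8 glia markers 2 were higher in females and 4 in males, with the astrocyte gene alrm at 44.5 to 55.7 CPM in females and 67.0 to 86.3 CPM in males (-0.60, SE 0.08, adjusted p = 0.00027). The part of yolk and fat body RNA in these differences was not tested.

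Of 40 neuropeptide and peptide hormone genes tested, 3 were higher in females, 13 were higher in males and 24 were not called, with a median log2 fold change of -0.15. With library size alone 0 were higher in females and 26 in males, and without male replicate 1 or male replicate 4 the count higher in females was 1. CCAP, a peptide of ecdysis and heart rate, was at 1.27 to 1.51 CPM in females and 2.02 to 2.56 CPM in males (-0.71, SE 0.11, adjusted p = 0.00082). Dh31, Dsk, Mip and SIFa, which act in sleep, feeding and courtship, were higher in males with log2 fold changes of -0.41, -0.40, -0.37 and -0.35 (adjusted p from 0.0017 to 0.0061). The clock neuropeptide gene Pdf was at -0.22 (SE 0.06, adjusted p = 0.015). The insulin-like peptide gene Ilp2 was higher in females, at 130, 107, 95.8, 98.4 and 124 CPM against 75.7, 81.0, 87.1, 74.9 and 85.1 CPM (0.46, SE 0.09, adjusted p = 0.003). Ilp5 was higher by 0.50 (SE 0.16, adjusted p = 0.036) and NPF by 0.17 (SE 0.05, adjusted p = 0.03), and both calls were lost when single pools were left out.

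**Figure D4:**
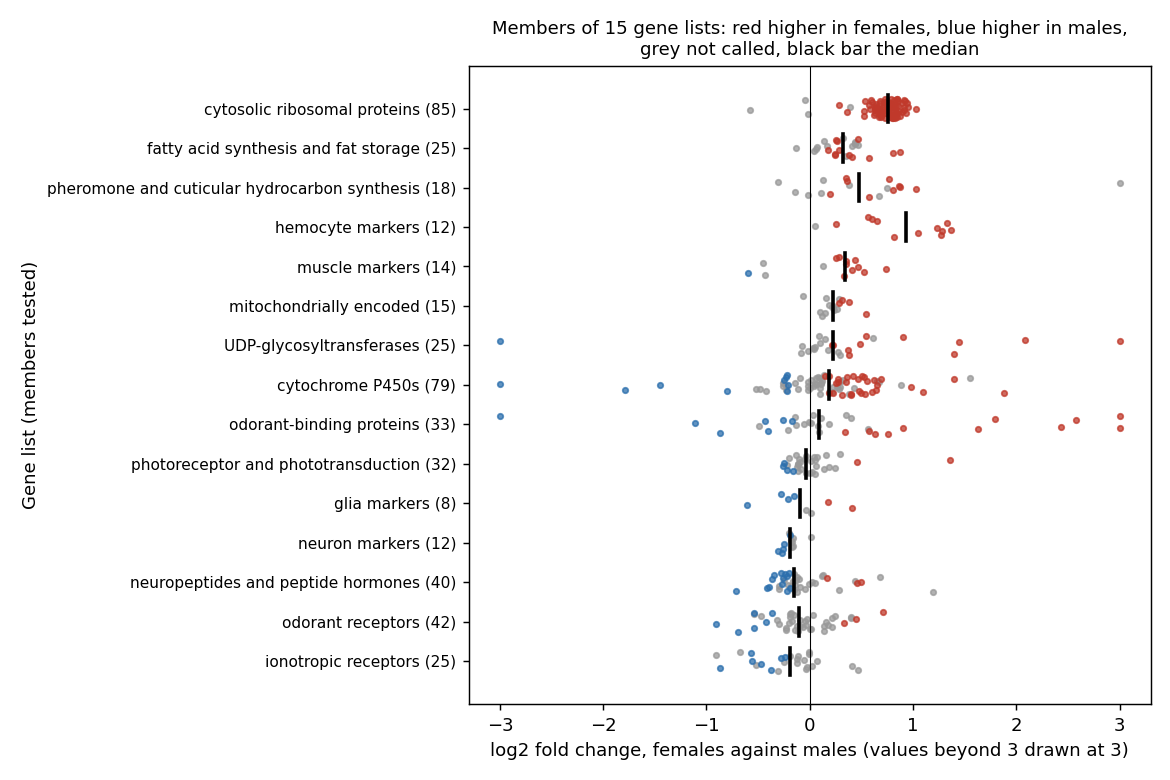
Each point is a tested member of 1 of 15 gene lists (number tested in brackets), with its log2 fold change of females against males on the TMM scale on the x axis; red and blue points were called higher in females and in males, grey points were not called, black bars are medians, and the 7 members beyond 3 are drawn at 3. Ribosomal protein (0.75) and hemocyte (0.93) medians lie on the female side and neuron (-0.19) and neuropeptide (-0.15) medians on the male side; the medians for mitochondrial genes, UDP-glycosyltransferases, P450s and odorant-binding proteins turn negative with library size alone.

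Of 32 photoreceptor and phototransduction genes 2 were higher in females (6.25%) and 4 higher in males (12.5%), with a median of -0.04. Over all tested genes these shares were 16.9% and 11.9%. The count of 4 was 2 without any 1 of females 1 and 2 and males 2 and 4, 7 without female replicate 5, and 17 with library size alone. The main rhodopsin gene ninaE was at 23900 to 29600 CPM in females and 26800 to 30100 CPM in males (-0.05, SE 0.09, adjusted p = 0.72), and the rhodopsin Rh6 was at -0.26 (SE 0.07, adjusted p = 0.013). The carotenoid uptake receptor gene ninaD was higher in females, at 4.72, 3.57, 3.78, 3.05 and 4.05 CPM against 1.28, 1.26, 2.24, 1.21 and 1.49 CPM (1.36, SE 0.18, adjusted p = 0.00035). Of 15 eye pigment genes 3 were higher in females and 1 in males. The white gene itself, a half-transporter of pigment precursors with 1 functional copy in either sex, was at 12.4 to 16.2 CPM in females and 8.11 to 11.5 CPM in males (w, 0.54, SE 0.11, adjusted p = 0.0044). The groups did not overlap, and counts per gene do not separate the functional allele from the w1118 allele that the females also carry. The paper reports an almost complete loss of white expression in w- flies of both sexes. The part of the w1118 allele in the female level was not tested. The ommochrome gene cd was higher in females by 0.87 (SE 0.14, adjusted p = 0.0012).

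Enzymes of detoxification and steroid metabolism contained some strongly sex-biased members. Of 79 P450 genes 29 were higher in females and 9 in males, and of 25 UDP-glycosyltransferase genes 11 and 1. The P450 counts were 9 and 20 with library size alone, and the UDP-glycosyltransferase counts 7 and 2. Without male replicate 1 the P450 counts were 19 and 5. Cyp18a1, which inactivates the molting hormone ecdysone, was at 43.0, 40.5, 25.9, 45.3 and 34.2 CPM in females and 7.70, 9.44, 9.53, 11.9 and 12.7 CPM in males (1.88, SE 0.18, adjusted p = 9e-05). Cyp313a1 was at 181 to 302 CPM in females and 725 to 991 CPM in males (-1.79, SE 0.13, adjusted p = 6.5e-06). Ugt37A3 was higher in females by 3.11 (SE 0.39, adjusted p = 0.00053). Ugt37B1 was at 0 CPM in 3 female pools and at most 0.0507 CPM in the others, against 0.564 to 1.81 CPM in males (-5.58, SE 0.64, adjusted p = 0.00015).

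A larger share of X-linked than of autosomal genes was called with TMM scaling. Of 1803 X-linked genes 466 were higher in females and 243 in males (39.3% called), against 1372 and 1061 of 9103 autosomal genes (26.7% called). The X share stayed the larger with DESeq2, which called 470 and 304 X-linked and 1456 and 1329 autosomal genes. It also stayed the larger with TMM set without the yolk protein genes (421 and 275 X-linked, 1229 and 1240 autosomal). The X share was no longer the larger with library size alone, with 148 and 862 X-linked and 453 and 4795 autosomal genes called. Median log2 fold changes were nevertheless close, 0.05 for the X and 0.01 for the autosomes, and -0.07 for the 103 genes of chromosome 4. With library size alone these medians were -0.22 for the X and -0.26 for the autosomes, so the X stayed above the autosomes while both turned negative. Large differences with higher male levels lay on the X more often. The X carried 16.5% of the tested genes and 65 of the 137 genes (47.4%) that were higher in males by at least 1 on the log2 scale, and 49 of the 217 (22.6%) that were higher in females by as much. Of the 65, 36 had a mean under 1 CPM in both sexes (55.4%), beside 12.2% of all tested genes. Of the 72 autosomal genes higher in males by as much, 49 did (68.1%). Of the 65, 60 were called without male replicate 4, and of the 72 autosomal genes 49 were.

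**Figure D5:**
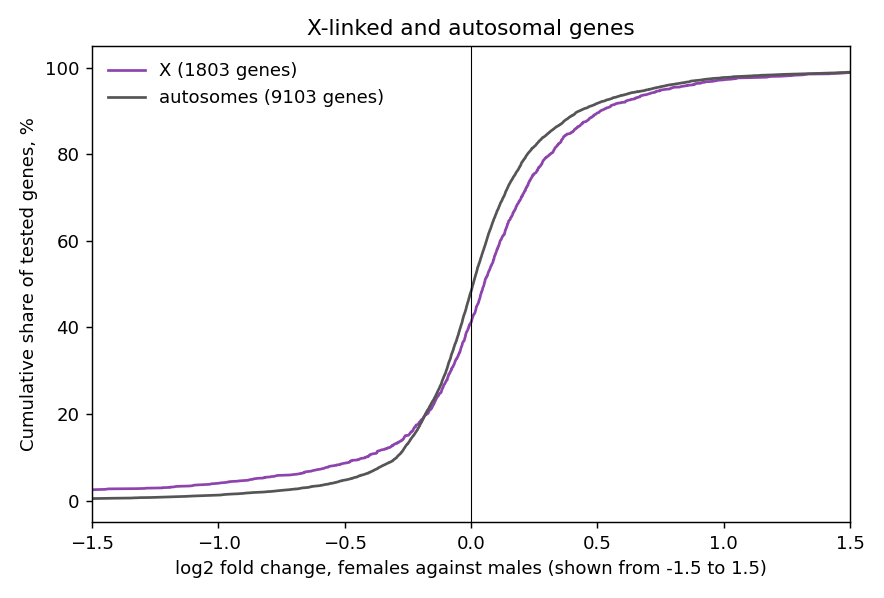
Cumulative share of the 1803 X-linked (purple) and 9103 autosomal (grey) tested genes, in percent, by log2 fold change of females against males on the TMM scale, shown from -1.5 to 1.5. The X curve lies to the right of the autosomal curve around 0 and above it at the left end, where male levels were higher, with medians of 0.05 and 0.01 (-0.22 and -0.26 with library size alone).

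Several X-linked genes were almost silent in female heads. CG3706 (X, 930931 to 932475) had 0 counts in the 5 female pools and 252 in the 5 male pools, at 1.24, 0.976, 0.856, 0.925 and 1.28 CPM. It was at least 82.8-fold higher in males against 3 counts over the female group. CG4586 was at 0.101 to 0.208 CPM in females and 4.27 to 5.63 CPM in males (-5.15, SE 0.17, adjusted p = 8.1e-09), and brv3, of the brivido channel family, at 0.0218 to 0.105 CPM and 2.58 to 3.40 CPM (-5.35, SE 0.23, adjusted p = 7e-08). The brv3 gene (X, 2622069 to 2624575) lies close to w (X, 2790599 to 2796466), where sex and flanking chromosome cannot be told apart in w+ flies. In w- flies brv3 was at -5.53. The mucin gene Muc14A and the gene beside it, CG12698, were both higher in males, by -3.55 (adjusted p = 8.9e-07) and -2.35 (adjusted p = 0.00056). On the female side, CG13360 was at 66.9, 69.9, 95.9, 74.0 and 63.3 CPM in females and 16.3, 17.9, 18.4, 18.4 and 17.9 CPM in males (2.06, SE 0.10, adjusted p = 3.4e-07). Sptr, the sepiapterin reductase gene of biopterin synthesis, was higher in females by 1.06 (SE 0.06, adjusted p = 7e-07) with non-overlapping groups, and CG15247 by 1.19 (SE 0.06, adjusted p = 2.6e-07).

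Among the X-linked genes with higher male levels were several that are known from oogenesis or early embryos. They were picked after their values were seen and get no test as a group. The fs(1)Yb gene, of the piRNA pathway of ovarian somatic cells, was at 0.158, 0.0253, 0.0437, 0 and 0.0260 CPM in females and 1.21, 0.933, 1.02, 1.12 and 0.745 CPM in males (-4.21, SE 0.43, adjusted p = 6.9e-05). Its neighbors fs(1)Ya, for a nuclear envelope protein of early embryos, and vilya, a meiotic recombination gene, were at -3.73 (SE 0.32, adjusted p = 1.8e-05) and -4.31 (SE 0.56, adjusted p = 0.00031). All 3 lie close to w, where sex and flanking chromosome cannot be told apart in w+ flies. In w- flies fs(1)Yb was at -4.92, fs(1)Ya at -4.54 and vilya at -4.93. The egg activation gene png was at 0 to 0.130 CPM in females and 0.369 to 0.749 CPM in males (-2.79, SE 0.43, adjusted p = 0.00084). The maternal genes gd, dah and mh were at -2.22 (adjusted p = 0.0027), -2.34 (adjusted p = 0.00013) and -1.10 (adjusted p = 2e-04). In these 7 genes the female values lay below the male values, as in 8.80% of all tested genes. The X-linked gene fs(1)N, looked at with them, overlapped, at 0.0791 to 0.328 CPM in females and 0.256 to 0.572 CPM in males. Its call (-1.05, SE 0.37, adjusted p = 0.049) was lost without any 1 of females 1, 2, 4 and 5 and males 1 to 4. Male replicate 4, the pool with testis transcripts, was the highest male pool for fs(1)Ya, png, gd, mh and fs(1)N. Without it the 7 genes other than fs(1)N were still called, with fs(1)Ya at -3.65, png at -2.62, gd at -2.13 and mh at -1.06.

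Some markers of the reproductive tract were detected in every pool, with the tested ovary markers summing to 77.2 to 93.1 CPM and the tested testis markers to 316 to 496 CPM. Of 13 tested ovary markers 1, yellow-g, was higher in females (1.45, SE 0.22, adjusted p = 0.00088) and 2, png and otu, higher in males. The call of otu (-0.82, adjusted p = 0.029) was lost without any 1 of females 1 and 4 and males 1, 4 and 5. The 17 ovary markers outside the test had at most 16 counts over either sex. Of 9 tested testis markers 1, mia, was higher in males (-0.38, SE 0.11, adjusted p = 0.029), a call that was lost without female replicate 2 or male replicate 1 or 2. The 24 testis markers outside the test had 4240 counts in male replicate 4 and 8 to 20 in the other 9 pools. Of 28 accessory gland markers 1 was tested, and it was not called.

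The white-eyed samples gave the same comparison in other flies. Of 10869 genes tested there 4422 were called (40.7%), 2330 higher in females (21.4%) and 2092 higher in males (19.2%). Of the 1845 genes higher in w+ females 1832 were tested in w- flies, where 1803 (98.4%) had the same direction and 1536 were called in it. Of the 1305 genes higher in w+ males 1279 were tested, 1260 (98.5%) had the same direction and 1009 were called in it. Among genes not called in w+ flies 76.7% had the same direction. Among the log2 fold changes in both genotypes, roX1 was at -6.68 in w+ and -6.94 in w- flies, msl-2 at -0.96 and -0.94, Yp1 at 13.11 and 13.12, fit at 4.43 and 4.45, Obp99b at -3.55 and -3.87, Cyp4d21 at -3.65 and -3.67, and Ugt37B1 at -5.58 and -3.32. Of the list members tested in w+ flies, the ribosomal proteins had 82 called higher in w- females, the hemocyte markers 10, the muscle markers 12 and the antimicrobial peptides 12, against 81, 11, 10 and 2 in w+ flies. The photoreceptor list had 20 members higher in w- males, against 4 in w+ males. Differences between these counts were not tested, and edgeR with all 20 samples called no tested member of these 5 lists for the interaction of sex and genotype. DESeq2 called the muscle markers Act79B and up for it.

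The interaction was called for 3 of 11423 genes (0.0263%), and 631 had an unadjusted p under 0.05 (5.52%). DESeq2 called 13. Of the 3 genes, APC7, a subunit gene of the anaphase-promoting complex, was the only one called between the sexes in w+ flies. It was at 0.764, 0.709, 1.07, 0.540 and 0.702 CPM in w+ females and 2.85, 4.06, 4.23, 4.12 and 4.05 CPM in w+ males (-2.33, SE 0.18, adjusted p = 6.5e-06). In w- flies its log2 fold change was -0.18 (adjusted p = 0.51), and the difference between the genotypes was 2.17 (interaction adjusted p = 0.00077). Scaled over all 20 samples, APC7 was at 0.554 to 1.11 CPM in w+ and 0.431 to 0.838 CPM in w- females. Male pools had 2.95 to 4.38 CPM of APC7 in w+ and 0.574 to 0.930 CPM in w- flies. CG4020 was at -0.67 (adjusted p = 0.078) in w+ and 2.48 (adjusted p = 1.7e-06) in w- flies. On the scale of all 20 samples it was lower in w- flies of both sexes. It was at 15.1 to 33.6 CPM in w+ females and 27.7 to 43.6 CPM in w+ males, against 2.24 to 3.43 and 0.344 to 0.588 CPM in w- flies. FarO, a fatty acyl-CoA reductase family gene, was at -0.31 (adjusted p = 0.14) and 1.00 (adjusted p = 9.1e-06). Its male pools had 7.26 to 10.1 CPM in w+ and 2.17 to 2.80 CPM in w- flies. Its female pools had 4.49 to 8.44 and 4.64 to 5.46 CPM. All 3 are X-linked, as is w, and lie 3.81, 3.12 and -0.59 Mb from it, where the flanking Harwich chromosome of the w+ flies and the w allele cannot be told apart. Near w the w+ females also carried a w1118 chromosome and the w+ males did not. For genes there, sex and flanking chromosome cannot be told apart in w+ flies. Of X-linked genes within 1 Mb of w, 9.76% had an unadjusted edgeR interaction p under 0.05. This share was 7.01% to 8.49% from 1 to 12 Mb and 4.48% beyond.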

How the data were processed

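RNA of pooled heads had been sequenced in 20 samples. Per the labels and the study's methods, the authors trimmed the reads with Trim Galore 0.6.1, aligned them with STAR to the FlyBase release 6 genome and deposited raw counts per gene from the strand-specific column, in which reads over more than 1 gene are not counted. The deposited normalized tables were not used. Symbols and positions came from the Ensembl annotation of the same assembly, for 17597 of 17609 genes. Counts of the 10 w+ samples were fitted with edgeR 4.0.16 (R 4.3.3), with TMM scaling, robust quasi-likelihood dispersion and sex as the only term, on genes that reached 10 counts in 3 or more samples. The same fit was run on the w- samples, and the interaction of sex and genotype on all 20. DESeq2 1.42.0, a replicate block, other scalings and filters, and leaving out each sample were the alternatives. Scripts were tested on simulated data. Nothing said whether the pools came from separate cultures, so p-values measure the spread between pools. A fold for a gene at 0 in one sex was computed against 3 counts over that group and covers counting error only. No far-apart pool was removed from the main results.

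Named genes were members of 31 gene lists, the 10 largest changes in each direction (adjusted p under 0.05, groups not overlapping, at least 1 CPM), the 10 largest CPM differences in each direction and the 5 smallest interaction p-values. The genes rost, tobi, CG13360, Sptr, CG15247, CG12698, CG34220 and Cht8 were chosen after their values were seen. So were the X-linked genes fs(1)Ya, fs(1)N, vilya, gd, dah and mh. The comparison, the lists and the genes were chosen with earlier results of these data known. No sequences are shown.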

Additional observations from a re-analysis of the deposited data

Results flagged for a closer look

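Of 284 groups of 5 pools examined, 29 had a pool far from the other 4, and w+ females replicate 4 was that pool in 8. The rule would flag about 1 in 20 independent groups by chance. These groups included genes picked after their values were seen and antimicrobial peptide genes high in the same pool. The count of 29 therefore cannot be held against that rate. In w+ females replicate 4 AttC was at 1620 CPM, Mtk at 649 CPM, DptA at 774 CPM, Dro at 1010 CPM, the chitinase family gene Cht8 at 60.6 CPM and CG34220 at 7790 CPM, all above the other females, and elav was below them at 75.5 CPM. The antimicrobial peptide genes had 169000 counts in this pool and 21600 to 33600 in the other females.

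In w+ males replicate 4 the untested testis genes summed to 104 CPM without TMM scaling, TotX was at 129 CPM, Rh6 at 342 CPM and Obp99a at 0.528 CPM, each above the other males. In w+ males replicate 3 Cyp4g1 was at 39.8 CPM, ninaD at 2.24 CPM, dah at 0.764 CPM and CG34220 at 32.1 CPM, again above the others. In w+ males replicate 2 roX1 was at 4320 CPM (lncRNA:roX1), the neuroendocrine gene IA-2 at 4360 CPM and the synapse gene Sap47 at 1750 CPM. In w+ males replicate 1 APC7 was below the others at 2.85 CPM and so was CG13360 at 16.3 CPM.

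Among females, replicate 1 was high for TotA at 123 CPM, fs(1)Yb at 0.158 CPM and Ugt37C1 at 1.03 CPM. Replicate 2 was low for eater at 8.81 CPM, and replicate 3 was high for BomT1 at 28.1 CPM. Replicate 5 was high for CG4586 at 0.208 CPM, Sap47 at 1480 CPM and Obp56a at 45.3 CPM. The sex difference itself differed between the genotypes for APC7 by 2.17, for CG4020 by 3.16 and for FarO by 1.31 on the log2 scale (w- minus w+, edgeR interaction adjusted p = 0.00077, 0.00077 and 0.0029).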

How the results depend on the processing

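With library size alone 6266 genes were called, 603 higher in females (148 X-linked, 453 autosomal) and 5663 higher in males (862 and 4795). With an absolute log2 fold change of at least 1 the counts were 354, 217 (49 and 167) and 137 (65 and 72). Leaving out 1 pool gave 2449 (without males 2) to 3877 (without females 5) calls, 1414 to 2110 higher in females (383 to 477 X-linked, 1026 to 1624 autosomal), 985 to 1767 higher in males (212 to 310 and 765 to 1454) and 3 to 12 interaction calls. Without both pools numbered 4, an alternative chosen after seeing the data, 705 autosomal genes were higher in males and the interaction had 5 calls. DESeq2 gave 13 interaction calls and 3569 calls between the sexes, 3076 of them shared. Outside the yolk protein genes the X share differed by 0.1 percentage points (exact permutation p = 0.62, adjusted p = 0.79). With library size alone fru was at -0.07, msl-1 at -0.27, to at -0.25, Pxn at -0.22 and NPF at -0.11 on the log2 scale. Pools with the same replicate number had correlated deviations of -0.068 to 0.15, so the numbers were not taken as pairs; with the replicate number as a block 2870 genes were called, 2645 of them shared. The block also called Fad2 (adjusted p = 0.01) and lost, among others, Lsp2, ACC, lush, Ilp5, AttC, Def and otu. Of 120 called genes among those examined singly, 88 stayed called under each alternative run for them, which did not include the minimum log2 fold change. Calls lost with library size alone included snf, spidey, Or67d, Mhc, Prm, Ilp2 and w, and the counts higher in females and in males were then 1 and 10 for sex determination, 1 and 12 for dosage compensation, 0 and 6 for glia and 0 and 14 for odorant receptors.

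Counting error was largest for rare genes, and 1338 of the tested genes had a mean under 1 CPM in both sexes. Counts per gene do not resolve exons, and 5 pools per sex of 1 age and background set the range of the results.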

Other observations

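The 24 rare testis genes were also counted in the w- pools. They had 1472, 3, 3, 1801 and 58 counts in w- males 1 to 5, and 6, 14, 9, 257 and 8 counts in w- females 1 to 5. In w+ males replicate 4 the testis genes S-Lap1, Mst77F and betaTub85D had 964, 235 and 237 counts, against 31 to 72, 20 to 44 and 23 to 47 in the other 9 w+ pools.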
